A study of Mus musculus with 4 samples.

Results

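The genes described here were 10 markers of microglia, taken from the arrays by their symbols as Cx3cr1, Csf1r, Aif1, C1qa, C1qb, C1qc, P2ry12, Tmem119, Trem2 and Tyrobp. All 10 were among the 24185 gene symbols of the array. They were covered by 14 distinct probes on 23 spots. Cx3cr1 and Csf1r had 3 probes each and the other 8 genes had 1 probe each. All 14 probes were well above background on all 4 arrays, so every member entered the test.

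In RNA immunoprecipitation (RIP), a protein is pulled down with its antibody and the RNA that comes with it is recovered. RNA was recovered with CPEB2 IgG or with control IgG from a lysate of cortex and hippocampus of 8-week-old male C57BL/6 mice, and was hybridized to 1-color Agilent arrays, 2 for each antibody. CPEB2 is an RNA-binding protein that recognizes cytoplasmic polyadenylation elements (CPEs) in 3'-UTRs and controls translation, and the comparison asks which mRNAs came down with it. There were 2 experiments, each with its lysate split over both antibodies. The same-numbered arrays of the 2 groups were taken as a pair, as the study lists them. None of the groups carried a deletion or a drug, and the number of mice behind a lysate was not given in the sources used here. GEO's description of the samples called CPEB2 IgG in their titles and protocol gives the antibody as CPEB3, and they were taken as CPEB2 IgG. The lysate held all cell types of the tissue. Within a pair both antibodies met the same lysate, and so the same microglia. Between the lysates of the 2 pairs, fewer microglia and less RNA per microglial cell cannot be told apart. No array of the input lysate was used here, so the values are relative to control IgG and do not give the share of a transcript that was precipitated.

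Microglia are the resident macrophages of the brain. They survey the tissue with motile processes, clear debris and dying cells, and remove synapses tagged by complement. CX3CR1 binds the neuronal chemokine CX3CL1, and CSF1R is the receptor for CSF1 and IL34 on which microglial survival depends. P2RY12 senses ADP and steers processes towards injury. TREM2 binds lipids and signals through the adaptor TYROBP (DAP12), which recruits the kinase SYK. C1QA, C1QB and C1QC are the chains of C1q, the recognition molecule of the classical complement pathway. AIF1 (IBA1) is an actin- and calcium-binding protein widely used to stain microglia, and TMEM119 is a surface protein used to tell microglia from other macrophages.

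The probe sequences show where each gene was read. Each probe is a single strand of 60 bases, and 30 bases are shown for the gene that was highest with CPEB2 IgG relative to control IgG (P2ry12), the gene that was lowest (Aif1), the C1q probe with repeat spots (C1qc), the probe that lies across an intron (Tyrobp), and the members other than Csf1r whose probe holds a polyadenylation signal. Capitals mark that signal (AATAAA or ATTAAA), and sequences without capitals hold neither. The Cx3cr1 stretch is shared by a pair of probes that overlap by 55 bases.
P2ry12: tgcacattaagatggtagaggtttaaaagg
Aif1: gagcttctgatgacagcagcatggaaaaaa
C1qc: tctgggaaccacctaatggtattattcctg
Tyrobp: ggacccggaaacaacacattgctgagactg
Cx3cr1: tgtaattctgtcAATAAAcattggtttcct
Trem2: tgcactttggacATTAAAcattctccacac
On build mm9, as the array annotation gives it, the P2ry12 probe lay at chr3:59020598-59020657 on the minus strand and the Aif1 probe at chr17:35307959-35308018 on the minus strand. The C1qc probe lay at chr4:136445766-136445825 on the minus strand, between those of C1qa and C1qb, and the 3 C1q probes spanned 15891 bases. The Tyrobp probe, whose ends are 1728 bases apart on the genome and which therefore spans an exon junction, lay at chr7:31200651-31202378 on the plus strand. The overlapping Cx3cr1 probes lay at chr9:119957811-119957870 and chr9:119957806-119957865 on the minus strand, and the Trem2 probe at chr17:48491537-48491596 on the plus strand. Which exon or UTR each probe lies in was not looked up here. Searched on the sense strand only, AATAAA was present in 10.9% of the 41137 probes tested and in both overlapping Cx3cr1 probes, and ATTAAA in 4.04% and in 1 probe each of Csf1r and Trem2. The CPE letters TTTTAT were in 3.71% of probes and TTTTAAT in 0.899%, and in none of the 14 member probes, which says nothing of the rest of these transcripts.

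P2ry12 rose and 5 probes of 5 other members fell with CPEB2 IgG relative to control IgG, and the remaining 8 probes did not pass the test (limma with the pair as a block, on log2 signal relative to the array's 75th percentile, adjusted p under 0.05 over all 41137 probes tested). The probes that fell were those of Aif1, C1qa, C1qb and Tyrobp and the last of the 3 Csf1r probes. Across all probes tested, 12.7% were called higher and 14.8% lower, against 1 and 5 of 14 here. The median log2 fold change of the member probes was -0.75, beside -0.20 over all probes. Of the 14 probes, 11 were below 0 in both pairs and 2 were above 0 in both. By the brightest probe, 8509 of 19698 genes (43.2%) were below 0 in both pairs and 7193 were above. The 14 probes are not separate observations, since Cx3cr1 and Csf1r have 3 each. The CPEB2 IgG and control IgG arrays did not overlap for 11 of the 14 probes, and did not overlap for 65.6% of all probes. The count of 5 lower probes fell to 1 without CPEB2 IgG array 2, to 2 without control IgG array 1 and to 1 without control IgG array 2, and under centring within bins of probe GC content it was 3. When dim probes were kept in the probe fit, limma called 0 of 55615 probes, and at an unadjusted p under 0.05 that fit had 1 member probe higher and 8 lower. P-values measure the spread between these arrays, and limma draws the spread of each probe towards that of all probes. The limma standard error was 0.28 both for Tyrobp and for Cx3cr1 at position 2476, whose pairs had SDs of 0.04 and 0.22. An exact permutation test of a single probe cannot give a two-sided p below 0.5 within the 2 pairs, or below 0.333 with the pairing ignored.

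**Figure D1:**
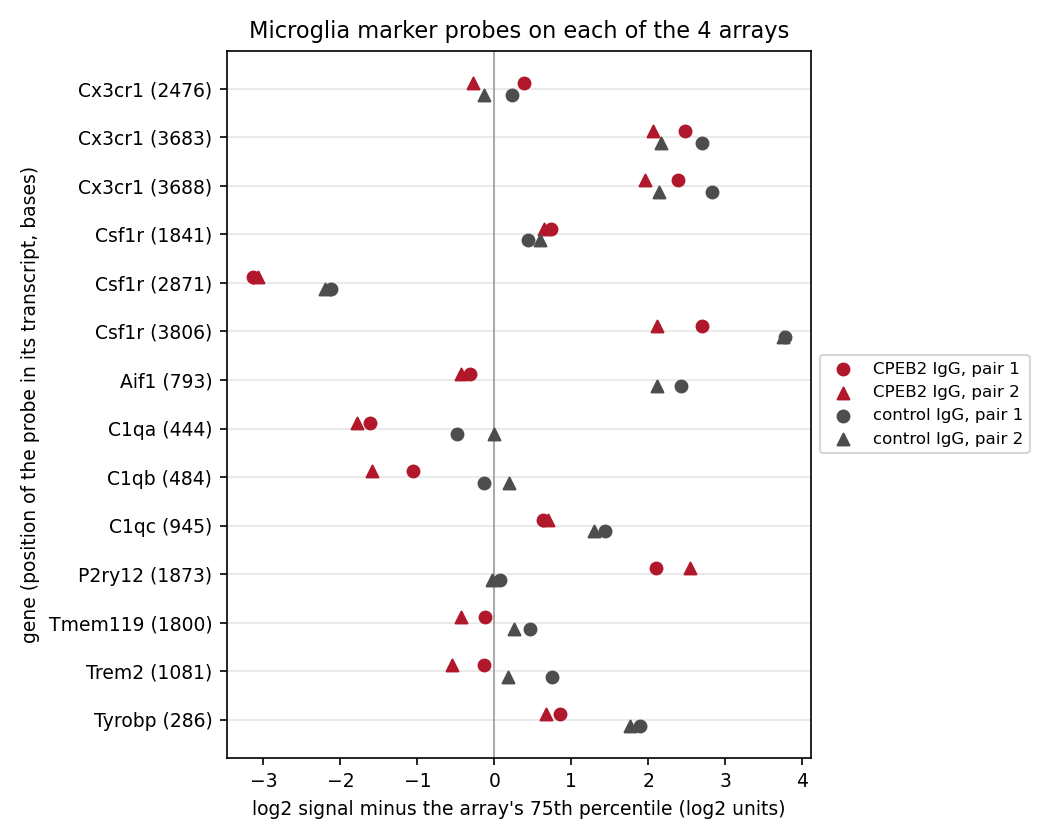
Scaled log2 signal (signal minus the 75th percentile of the array, x axis) of the 14 probes (y axis, gene with the position of the probe in its transcript) on each array, with CPEB2 IgG in red, control IgG in grey, circles for pair 1 and triangles for pair 2. P2ry12 lies to the right with CPEB2 IgG, Aif1 lies to the left, and the arrays of the 3 Cx3cr1 probes overlap. Levels of different probes are not comparable.

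Among the receptors, P2ry12 was the member that rose. Its raw signal was 1793 and 2436 on the CPEB2 IgG arrays and 466 and 415 on the control IgG arrays, in the order of the pairs. Both CPEB2 IgG arrays were far above both control arrays. After scaling it was 4.93-fold higher, with a log2 difference of 2.30 ± 0.39 (SD of 2 pairs, limma adjusted p = 0.00821), and it ranked at the 97.2th percentile of all probes. Its log2 difference stayed between 2.08 and 2.53 under 16 other settings of the processing and the test, and was 2.03 in pair 1 and 2.58 in pair 2. In RefSeq annotation, P2ry12 lies inside Med12l, which was looked up after the values were seen and is read on the opposite strand. The brighter of the Med12l probes had raw signals of 148 and 111 against 177 and 148, and a log2 difference of -0.28 ± 0.15 (SD, limma adjusted p = 0.504). The Med12l groups overlapped, unlike those of P2ry12.

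Cx3cr1, the fractalkine receptor, gave no call with any of its 3 probes. The probe at position 3683 of the transcript gave raw signals of 2341 and 1742 in the CPEB2 IgG precipitates, against 2865 and 1909 in those of control IgG. The overlapping probe at position 3688 had 2197 and 1618 against 3161 and 1878. For both of them the antibodies overlapped, since the arrays of pair 1 were brighter than those of pair 2 with either antibody. Their log2 differences were -0.16 ± 0.07 and -0.32 ± 0.18 (SD of 2 pairs). At position 2476 the raw signals were 550 and 344 against 518 and 385, with a log2 difference of 0.01 ± 0.22 whose sign differed between the pairs. The adjusted p of the 3 probes lay between 0.452 and 0.979 with limma, and the sign of each turned under at least 1 of the 16 settings.

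Csf1r, the receptor for CSF1 and IL34, depended on the probe. The probe nearest the end of the transcript, at position 3806, gave raw signals of 2726 and 1804 in the CPEB2 IgG precipitates, against 6034 and 5725 in those of control IgG. It was 2.55-fold lower, with a log2 difference of -1.35 ± 0.41 (SD, limma adjusted p = 0.0278). The probe at position 2871 was dim, with 47.7 and 49.7 against 102 and 92.4, and its log2 difference of -0.94 ± 0.10 missed the threshold (limma adjusted p = 0.058, and 0.0337 without the block of pairs). At both positions all control IgG arrays were brighter than all CPEB2 IgG arrays. At position 1841 the signals were 694 and 657 against 603 and 640. Here the CPEB2 IgG arrays were the slightly brighter ones, and the log2 difference was 0.17 ± 0.16 (SD, limma adjusted p = 0.688). The change of the last probe relative to the first, taken within each array, was -1.53 ± 0.25 on the log2 scale. Of 950 genes with 3 tested probes, 40.2% had probes that differed by this much or more, and 90.8% had probes that differed by at least the 0.33 seen among the Cx3cr1 probes. Without CPEB2 IgG array 2 the last Csf1r probe was at -1.06 (limma adjusted p = 0.0661), without control IgG array 1 at -1.35 (0.101) and without control IgG array 2 at -1.36 (0.0931). With spike-in scaling it was at -1.23 (0.0582).

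Trem2 and its adaptor Tyrobp were both dimmer with CPEB2 IgG, and Tyrobp passed the test probe by probe. Tyrobp gave raw signals of 756 and 667 in the CPEB2 IgG precipitates, against 1645 and 1444 in those of control IgG. The groups were apart, and the difference was nearly the same in both pairs, with a log2 value of -1.06 ± 0.04 (SD, limma adjusted p = 0.0416), or 2.09-fold lower. Trem2 had 381 and 286 against 743 and 480. Its groups did not overlap either, with a log2 difference of -0.80 ± 0.11 (SD) that missed the threshold (limma adjusted p = 0.0883). The change of Trem2 relative to Tyrobp within each array was 0.26 ± 0.15 (SD) on the log2 scale. Tyrobp lost its call under median centring (adjusted p = 0.0736), spike-in scaling (0.164) and GC centring (0.0748), and without CPEB2 IgG array 2 (0.0787), control IgG array 1 (0.161) or control IgG array 2 (0.116). Trem2 was past the threshold in 3 of 16 settings.

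The 3 chains of C1q were all dimmer with CPEB2 IgG, and C1qa and C1qb passed the test. C1qa gave raw signals of 137 and 121 in the CPEB2 IgG precipitates, against 315 and 424 in those of control IgG, and C1qb had 200 and 139 against 401 and 484. In both genes the control arrays were apart from the CPEB2 IgG arrays and the gap was wider in pair 2. C1qa was 2.72-fold lower (log2 -1.45 ± 0.47, limma adjusted p = 0.0249) and C1qb 2.55-fold lower (log2 -1.35 ± 0.61, limma adjusted p = 0.0358; SD of 2 pairs). The change of C1qa relative to C1qb within an array was -0.10 ± 0.14. C1qc had 649 and 674 against 1199 and 1036, a log2 difference of -0.70 ± 0.15 (SD) that did not pass (limma adjusted p = 0.123). This probe was spotted 10 times on each array, and its spots ranged from 615 to 688 and from 654 to 702 with CPEB2 IgG, and from 1101 to 1287 and from 985 to 1095 with control IgG. No spot of a CPEB2 IgG array reached the dimmest spot of a control IgG array. The spread over the spots was at most 4.92% of their mean and says nothing of the spread between lysates. Relative to C1qc, C1qa changed by -0.75 ± 0.62 and C1qb by -0.65 ± 0.75, and each of these gaps was close in size to the SD of the pairs. C1qa lost its call without CPEB2 IgG array 1 (limma adjusted p = 0.0528), CPEB2 IgG array 2 (0.0847) or control IgG array 2 (0.101). C1qb lost its call without CPEB2 IgG array 2 (0.0894), control IgG array 1 (0.0702) or control IgG array 2 (0.124), and under spike-in scaling (0.0612) or GC centring (0.0609).

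Aif1 fell the most of the 10 genes. It gave raw signals of 335 and 310 in the CPEB2 IgG precipitates, against 2366 and 1833 in those of control IgG. The groups were far apart, and the scaled signal was 6.22-fold lower (log2 -2.64 ± 0.14, SD of 2 pairs, limma adjusted p = 0.00683). Only 1.22% of all probes had a lower log2 difference. It stayed between -2.79 and -2.41 in 16 other settings and past the threshold in 15 of them, as P2ry12 did, the exception for both being the probe fit with no filter on dim probes (limma adjusted p = 0.0961).

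Tmem119, with its single probe, did not pass the test. The raw signals in the CPEB2 IgG precipitates were 384 and 310, against 609 and 506 in those of control IgG. The groups were apart by a small margin, with a log2 difference of -0.63 ± 0.07 (SD, limma adjusted p = 0.15). Relative to Tmem119 on the same array, P2ry12 changed by 2.93 ± 0.46 on the log2 scale (SD of 2 pairs). Relative to the mean of the 9 other members, P2ry12 changed by 3.43 ± 0.52 and Aif1 by -2.06 ± 0.24. A single scaling constant per array cancels out of these within-array values.

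**Figure D2:**
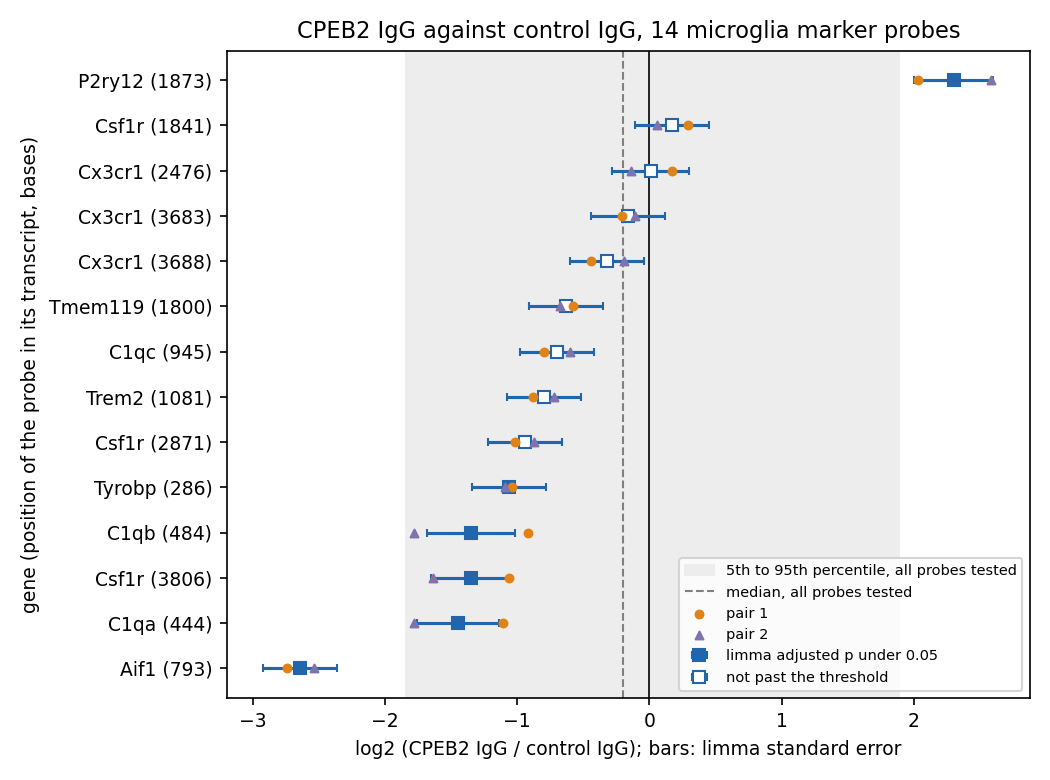
Log2 ratio of CPEB2 IgG to control IgG (x axis) for the 14 probes (y axis), with squares and bars for the limma estimate and its standard error, filled where the adjusted p was under 0.05, and with pair 1 as circles and pair 2 as triangles. The grey band, from -1.84 to 1.89, holds all probes tested between the 5th and 95th percentile, and P2ry12 and Aif1 lie outside it.

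The composition of the probes moved with the result. Over all probes tested, GC content and the log2 difference correlated at -0.32, and over the 14 member probes, with GC between 38.3% and 55%, at -0.44. The points share the same 4 arrays, and probes of Cx3cr1 and Csf1r share a transcript. P2ry12 and C1qc had the same GC content of 38.3%, where the median of all such probes was -0.07, and they lay on opposite sides of it. Aif1, Trem2 and the dim Csf1r probe had 45%, where the median was -0.31. C1qa, C1qb and Tmem119 had 55%, where the median was -0.52. After centring within bins of GC content, the log2 difference of P2ry12 was 2.19, that of Aif1 -2.55, that of C1qa -1.18, that of C1qb -1.08 and that of Tyrobp -0.78. The part of GC content in these differences was not tested further.

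With the brightest probe of each gene, as fitted over 19698 genes, 1 of the 10 members rose (P2ry12) and 6 fell, namely Aif1, C1qa, C1qb, Csf1r, Tyrobp and Trem2. Across all genes, 21.2% were called higher and 20.4% lower. Trem2 was just past the threshold here (limma adjusted p = 0.0491) and was lost without the block of pairs (0.0887), while C1qc was at 0.0705 and was gained without it (0.0431). Cx3cr1 (0.619) and Tmem119 (0.0872) were not called. Of the members, 9 of 10 were below 0 in both pairs, as were 43.2% of all genes. The count of 6 was 3 without CPEB2 IgG array 2, 3 without control IgG array 1 and 2 without control IgG array 2. The study set thresholds of a raw signal above 1000 and an enrichment above 1.5-fold, with no test. It also asked for at least 1 CPE in the 3'-UTR, which was not applied here. The enrichment used here was the mean over the 2 pairs after scaling, and the signal had to pass on at least 1 CPEB2 IgG array. Cx3cr1, Csf1r and P2ry12 had a probe above 1000 on a CPEB2 IgG array, and P2ry12 was the 1 member of 10 to pass both thresholds, against 13.9% of all genes. That count of 1 did not move under any alternative run for it.

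**Figure D3:**
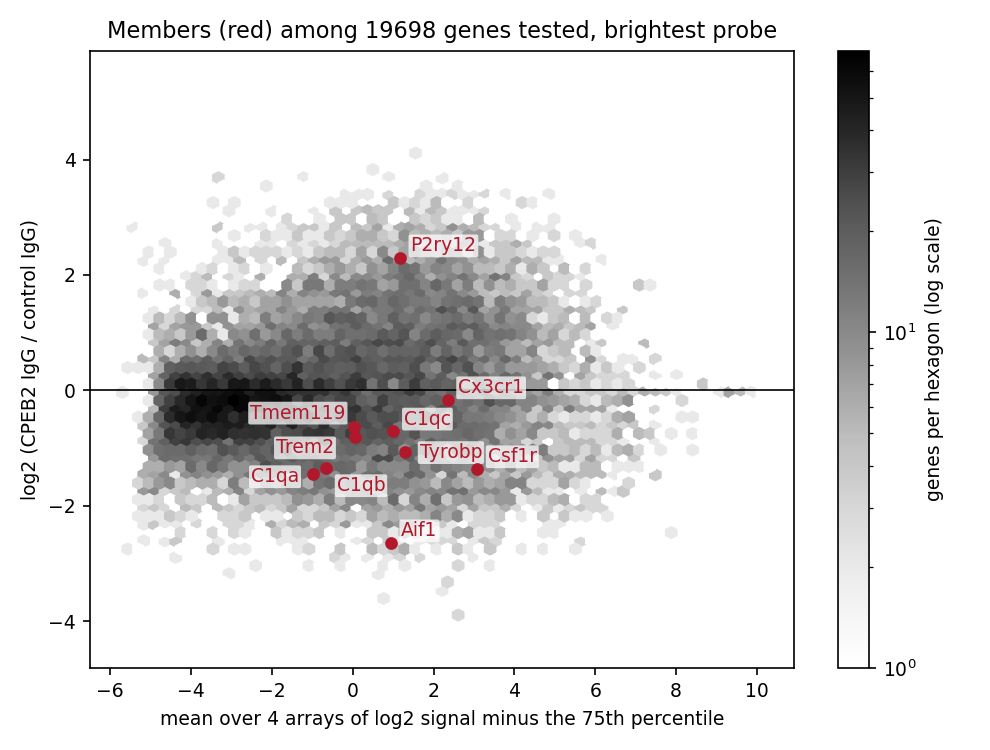
Log2 ratio of CPEB2 IgG to control IgG (y axis) against the mean scaled log2 signal over 4 arrays (x axis) for the brightest probe of each of 19698 genes, shaded by the number of genes on a log scale, with the 10 members in red. The members lie in the middle and upper range of signal, with P2ry12 in the upper part of the cloud and Aif1 in the lower part.

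The 3 listed ligands of CX3CR1 and CSF1R all rose, beside 21.2% of all genes called higher. Ligands of the other member receptors were not taken as a group. Cx3cl1, the ligand of CX3CR1, gave raw signals of 135294 and 150162 in the CPEB2 IgG precipitates, against 20720 and 18850 in those of control IgG, with a log2 difference of 2.90 ± 0.16 (SD, limma adjusted p = 0.00543). Csf1 had 1032 and 943 against 245 and 195, with a log2 difference of 2.23 ± 0.10 (adjusted p = 0.00558). Il34, the second ligand of CSF1R, had 10260 and 9114 against 2309 and 2280, with a log2 difference of 2.13 ± 0.15 (adjusted p = 0.0058). For each of the 3 ligands the CPEB2 IgG arrays were several times brighter than the control arrays, whereas no probe of Cx3cr1 or Csf1r rose.

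A broader list of 87 microglial genes, which leaves out the 10 members and holds these ligands, was called at shares near those of all genes. Of its 80 genes tested, 22 rose (27.5%), 18 fell (22.5%) and 40 did not pass, beside 21.2% higher and 20.4% lower over all genes, and the median log2 difference was 0.08, beside -0.11 over all genes and -0.93 over the members. Without control IgG array 2 the 22 became 14, and without control IgG array 1 or 2 the 18 became 6 in each case. Among genes for signalling downstream of receptors, 3 rose, 8 fell and 4 did not pass, with a median of -0.93. Vav1, which acts downstream of immune receptors, gave raw signals of 118 and 101 in the CPEB2 IgG precipitates, against 466 and 387 in those of control IgG (log2 -1.91 ± 0.01, limma adjusted p = 0.00637), and its other probe was at -3.66. Around the TREM2 and TYROBP pair, chosen after their values were seen, the kinase gene Syk was at -0.93 ± 0.09 (adjusted p = 0.0323), Plcg2, a phospholipase downstream of SYK, at -1.13 ± 0.06 (0.0194), and the adaptor gene Hcst, whose probe lies 358 bases from that of Tyrobp, at -1.15 ± 0.16 (0.0197). Inpp5d, an inositol phosphatase that restrains this pathway, rose instead (1.57 ± 0.45, 0.0131). Among the same signalling genes the kinase gene Lyn rose too, at 1.69 ± 1.27 (limma adjusted p = 0.0453, and 0.0736 without the block). Its dim probe was well above background on 3 of 4 arrays.

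Of 7 transcription factors tested on the list, 4 were higher, 1 was lower and 2 were not called, with a median of 1.01. The shares over all genes were 21.2% and 20.4%, and no test was made of so small a group. Mef2c, which is also abundant in cortical neurons, was the one that fell, with 425 and 491 against 1445 and 1722 (log2 -1.73 ± 0.07, limma adjusted p = 0.0073). Among lysosomal and secreted proteins 5 rose, 4 fell and 6 did not pass. Ctss, a lysosomal cysteine protease, had 5789 and 7346 against 1396 and 1064 (log2 2.47 ± 0.48, adjusted p = 0.00593). Apoe, the lipid carrier that astrocytes also make, had 5423 and 4065 against 17706 and 15556 (log2 -1.77 ± 0.20, adjusted p = 0.00751). The chemokine gene Ccl4 was at 2.83 ± 0.71 (adjusted p = 0.00611), with 1 of its 2 control IgG arrays not well above background, and Spp1, which encodes osteopontin, at -1.44 ± 0.94 (adjusted p = 0.0399, and 0.141 without the block), with 1 of its 2 CPEB2 IgG arrays not well above background.

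Among the 30 other receptors tested, 5 rose (16.7%), 5 fell (16.7%) and 20 did not pass, with a median of 0.04. Over all genes, 21.2% were called higher and 20.4% lower. Tgfbr2, a TGF-beta receptor, had 1598 and 1348 against 268 and 223 (log2 2.64 ± 0.03, limma adjusted p = 0.00543), while its other probe was at 0.24. P2ry13, the purinergic receptor gene next to P2ry12 with its probe 8544 bases away, was named after its value was seen and did not pass, at 0.74 ± 0.01 (adjusted p = 0.0578, and 0.0356 without the block). Of 10 complement genes other than C1q, 2 rose, none fell and 8 did not pass, with a median of -0.04. Cd55, which encodes an inhibitor of complement on cell surfaces, had 922 and 1000 against 164 and 171 (log2 2.57 ± 0.01, adjusted p = 0.00543).

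**Figure D4:**
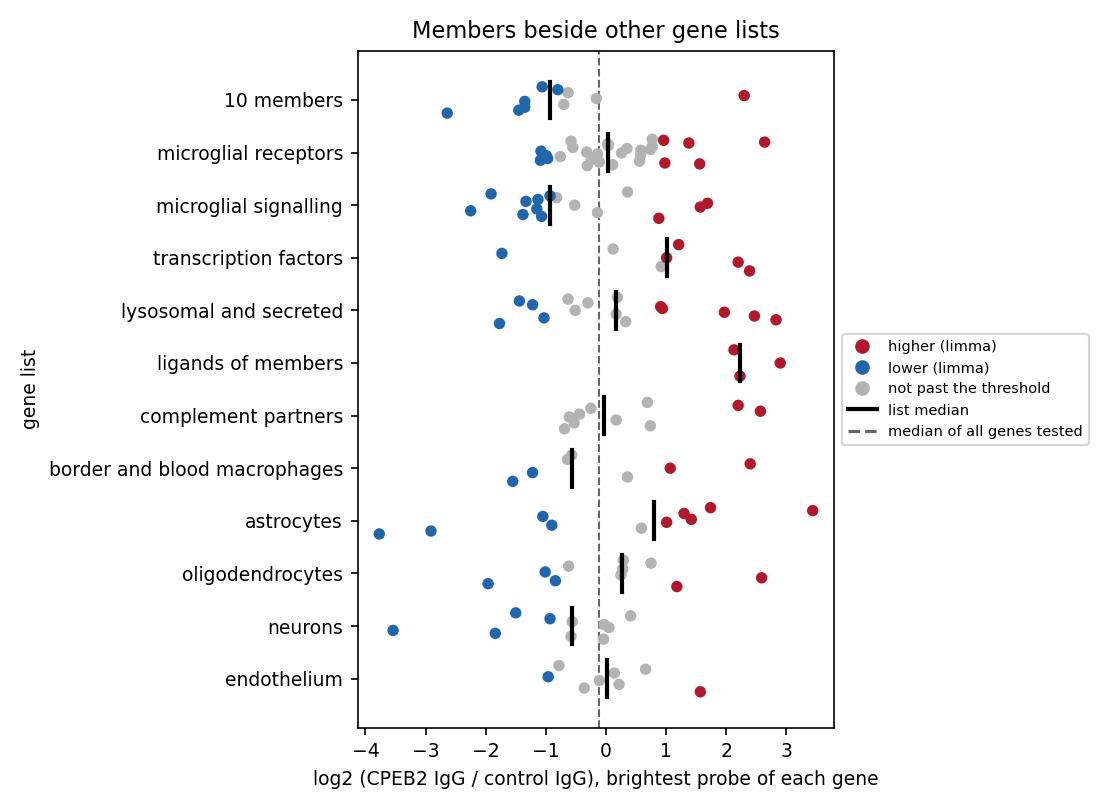
Log2 ratio of CPEB2 IgG to control IgG (x axis) for the brightest probe of each gene tested, by gene list (y axis), in red where limma called it higher, blue where lower and grey where neither, with a black bar at the list median and a dashed line at the median of all genes, -0.11. The members sit mostly left of the line except P2ry12, and the 3 ligands sit right of it.

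Markers of the other cells in the lysate were present, and each gene is given here by its brightest probe. Beside 21.2% of all genes called higher and 20.4% lower, of 10 astrocyte markers 5 rose and 4 fell (median 0.80, range -3.77 to 3.44), of 10 oligodendrocyte markers 2 rose and 3 fell (median 0.27, range -1.96 to 2.59), of 10 neuronal markers none rose and 4 fell (median -0.57, range -3.54 to 0.41), and of 8 endothelial markers tested 1 rose and 1 fell (median 0.02). Cpeb2 mRNA read 2410 and 1877 in the CPEB2 IgG precipitates, against 299 and 297, and Gapdh, often used as a non-target, had 48250 and 39694 against 253696 and 266689. On each array between 68.4% and 74.1% of 59305 spots were well above background and none was saturated. The arrays shared 1 slide, where each antibody had positions of its own, so position and antibody cannot be told apart. Scaling moved the median of all probes, by 0.23 on the log2 scale under median centring, 0.16 under quantile normalization, 0.12 under spike-in scaling, 0.13 under normexp background correction and -0.11 when the percentile was taken over probes detected on all arrays. With the 75th percentile 5228 probes were called higher and 6095 lower, and with median centring 7500 and 5594. P2ry12 and Aif1 kept their direction under each.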

How the data were processed

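RNA recovered by RIP from corticohippocampal lysate was measured on 4 arrays, 2 per antibody. The intensity values the authors deposited for each array are the processed signals of Agilent Feature Extraction 10.5.1.1, background-corrected by that program and not scaled between arrays. Their methods name no normalization.

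Control spots were left out, as were spots carrying the non-uniformity or population outlier mark, which dropped 66 of 55681 probes. Spots of a probe were averaged, and the array's 75th percentile was subtracted from its log2 signals. Probes well above background on at least 2 of 4 arrays were fitted with limma 3.58.1 in R 4.3.3, with the pair as a block, Benjamini-Hochberg adjustment over all of them and a threshold of 0.05. The same was done for the brightest probe of each gene. The fit leaves 1 residual degree of freedom. The split of each lysate comes from the methods, and the match of arrays by number from the study's own listing. Arrays of a pair deviated together only weakly (correlation 0.206). Python 3.11.15 was used for tables and figures.

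The members, the lists and the rule for named genes were chosen with earlier results of these data known. The rule takes every member, Cpeb2, Gapdh, the listed ligands of CX3CR1 and CSF1R, and the 5 highest and 5 lowest called genes of the broader list. Of these, 1 gene is not reported here. Border and blood macrophages, astrocytes, oligodendrocytes, neurons and endothelium are described by counts. Gene symbols and coordinates (mm9) are those of the array annotation. Alternatives were other scalings, normexp with an offset of 50, marked spots kept, other filters on dim probes, fits without the block or with a trend over intensity, other thresholds, and each array or pair left out. Precision is limited by there being only 4 arrays.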

Additional observations from a re-analysis of the deposited data

How the results depend on the processing

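P2ry12 kept its call as higher and Aif1 its call as lower in every alternative to the probe fit with a test except that with no filter on dim probes, where limma called 0 of the 55615 probes, and so 0 member probes higher and 0 lower (1 and 8 at an unadjusted p under 0.05). In the fit over genes with no filter, 1 member was higher and 1 lower, and 11 genes of the broader list were higher and 4 lower. The 5 lower member probes became 2 with spike-in scaling, 3 with centring within GC bins and 8 with normexp. The 18 lower genes of the broader list became 7 with spike-in scaling. Without the replicate block the lower member probes were 6, the higher member probes 1, the lower member genes 6 and the broader list 22 and 18. With each array left out in turn, which drops the block and assumes that a lone array varies like the other group, lower member probes ranged from 1 to 4, lower member genes from 2 to 5, and the broader list from 14 to 17 higher and from 6 to 19 lower, while P2ry12 stayed the 1 member higher. Those losses have fewer arrays by construction, and the cause of the others was not tested.

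The median log2 difference of member probes was -0.52 with median centring, -0.86 with the percentile over detected probes, -0.63 with spike-in scaling and -0.60 with normexp, and -0.70 or -0.84 from a single pair. The sign of Cx3cr1 at position 2476 turned to -0.04 without scaling, -0.10 with the percentile over detected probes and -0.01 with GC centring, and ranged from -0.33 to 0.35 with an array left out, one of them at -0.17. At position 3683 it turned to 0.07 with median centring and, with an array left out, ranged from -0.42 to 0.10, with another value above 0 at 0.05. At position 3688 it ranged from -0.66 to 0.03 with an array left out. No other member probe turned. All members were well above background on every array, and the part of background in the values of the dimmer probes was not tested.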

Other observations

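Markers of border and blood macrophages, cells that share several genes with microglia, were on the array for 9 of 10 genes, and 7 of them were tested. Of these 2 rose, 2 fell and 3 did not pass, beside 21.2% of all genes called higher and 20.4% lower. The median log2 difference was -0.57, with a range from -1.55 to 2.40. The gene at 2.40 was at 1.22 in pair 1 and 3.58 in pair 2. The part of these macrophages in the members' values was not tested.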
